A study of Mus musculus with 2 samples.

Results

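Of 175 deeply read ventricular wells in a study of sorted mouse heart muscle cells, 59 carried clear RNA of blood vessel lining and 55 carried almost none. The study sorted adult cardiomyocytes by LP-FACS, a form of cell sorting with a wide flow channel for large cells, and read each well by SCRB-seq, a plate method that counts poly(A) RNA molecules by unique molecular identifiers (UMIs). Both groups of wells came from the multichamber experiment, in which the cells were live and unfixed and the mice were wild-type C57BL/6 animals of about 3 months. No treatment or allele separates the groups. All wells used here carried the chamber label LV or RV (left or right ventricle) and held at least 10000 gene UMIs. In each well, the UMIs of Pecam1, Cdh5, Flt1, Fabp4, Ptprb and Egfl7 were summed and divided by all nuclear-encoded UMIs. A share of at least 0.02% put a well among those with endothelial RNA, and a share below 0.005% among those without it. The other 61 wells lay between the thresholds. The whole series holds 404 labelled wells, 332 of them in the multichamber experiment and 192 of those ventricular. The labels name no animal, so the multichamber experiment counts as 1 sample, wells are not replicates, and no test between the groups was possible.

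Heart muscle is among the most densely vascularised tissues, and nearly every myocyte lies against a capillary. Capillary endothelial cells pass fatty acids to the myocytes, are held together by junction proteins such as Cdh5 and Pecam1, and read growth factors such as Vegfa from the myocytes through receptors such as Flt1 and Kdr. Pericytes wrap capillaries, smooth muscle cells wrap arteries, and both share a basement membrane with the endothelium.

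The wells with endothelial RNA were found in all 4 libraries and in both chambers. Library A held 19 of its 42 wells in that group, library B 16 of 44, library C 11 of 43 and library D 13 of 46. The wells without endothelial RNA were spread differently, with 4 in library A, 12 in B, 16 in C and 23 in D. By chamber, 34 of 87 RV wells (39.1%, exact 95% interval 28.8 to 50.1%) and 25 of 88 LV wells (28.4%, 19.3 to 39.0%) held endothelial RNA. These intervals cover counting error only, and the difference between chambers was not tested. The RV and LV counts were 10 of 21 and 9 of 21 in library A and 11 of 21 and 5 of 23 in B. They were 7 of 23 and 4 of 20 in C, and 6 of 22 and 7 of 24 in D. Because library A gave only 4 wells to the second group, the main results are given within libraries as well. Of the 84 cell barcodes in use, 80 occurred in all 4 libraries. Whether endothelial RNA in a well came from an attached cell, a second cell or free RNA cannot be told apart in these counts.

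The groups had similar median depth over all wells. Wells with endothelial RNA held a median of 25895 nuclear-encoded UMIs (3104 to 109786), and wells without it 25927 (4198 to 71637). Depth was less alike in some chambers of a library. In RV wells of library B the medians were 23606 with and 57396 without endothelial RNA, the latter over 3 wells. In LV wells of library D they were 34198 and 21903. Mitochondrially encoded genes gave a median of 41.3% of gene UMIs in wells with endothelial RNA and 42.7% in wells without. The median number of genes detected was 4143 against 3774. After thinning each well to 5000 nuclear-encoded UMIs it was 1793 against 1715, with 1 shallower well of each group left out.

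The share of the 6 genes spanned a wide range within the chosen wells. It ran from 0.0208 to 0.713% with a median of 0.0651% in wells with endothelial RNA, and from 0 to 0.00497% with a median of 0 in wells without it. These shares chose the wells and are given as a description. The wells nearest the upper threshold stood at 0.0208% inside and 0.0196% outside, and those nearest the lower threshold at 0.00497% inside and 0.00501% outside. Of the 59 wells with endothelial RNA, 49 held UMIs of at least 3 of the 6 genes and 10 held all 6. Of the 55 wells without it, 29 held no UMI of any of the 6 and 1 held 3 genes.

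The 3 richest wells stood apart from the rest and went against their cardiomyocyte label. They were an LV well of library A at 0.713%, an RV well of library C at 0.636% and an LV well of library B at 0.473%, and together they held 1361 (54.1%) of the 2515 UMIs of the 6 genes in the group. In these wells Myl2, the ventricular regulatory light chain of myosin, stood at 1126 to 1433 CPM (counts scaled to a total of 1000000 nuclear-encoded UMIs), against a median of 10764 CPM in the other 56 wells with endothelial RNA. The 16 contractile genes together gave 1.17 to 2.51% of their nuclear-encoded UMIs, against a median of 10.3% in those 56 wells. Their mitochondrially encoded share was 8.76 to 15.3%, against a median of 41.8%. Both medians of those 56 wells lay close to those of the wells without endothelial RNA, at 10.2% and 42.7%. Single wells of low contractile share occurred in both groups, with the lowest at 2.68% among the 56 and 2.25% among the wells without endothelial RNA. Wells of other libraries with the same cell barcodes as these 3 held shares of 0.00140 to 0.0667%. The results below are therefore given for all 59 wells and, where the 3 wells bear on them, for the 56.

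**Figure D1:**
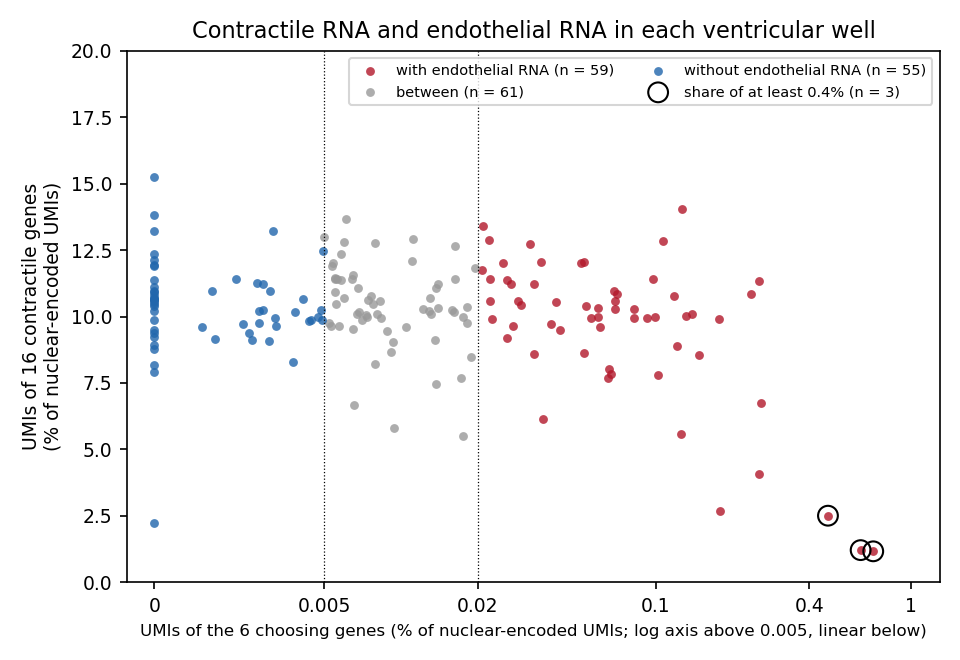
Each point is a ventricular well, with the share of the 6 choosing genes on the x axis (logarithmic above 0.005%, linear below) and the share of 16 contractile genes on the y axis, both in percent of nuclear-encoded UMIs; dotted lines are the thresholds and circles mark the 3 richest wells. The circled wells lie at 1.17 to 2.51% contractile RNA, and the median of the other 56 wells with endothelial RNA is 10.3%.

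Each of the 6 genes was also higher in wells chosen by the other 5, a description in which the gene itself had no part in the choice. Fabp4, a fatty acid carrier of capillary endothelium, stood at 452 CPM in the wells so chosen with endothelial RNA and 11.5 CPM in those without it, a 39.5-fold difference (exact 95% interval of counting error 26.3 to 62.0). Pecam1, the adhesion molecule CD31, stood at 267 against 10.2 CPM, 26.1-fold (17.0 to 42.1). Ptprb, the phosphatase VE-PTP, stood at 305 against 20.2 CPM, 15.1-fold (11.03 to 21.12). Cdh5 was 15.1-fold higher, Egfl7 14.4-fold and Flt1 14.2-fold. With the 3 richest wells left out, the 6 ratios ran from 6.54-fold for Ptprb to 19.9-fold for Fabp4.

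The mix of the 6 genes differed between libraries. Fabp4 gave 13.9% of their UMIs in library A, 38.9% in B, 39.5% in C and 32.0% in D. Pecam1 gave 31.7% in A, 9.42% in B, 13.2% in C and 15.98% in D. Without the richest well of libraries A, B and C, the share of Fabp4 lay between 23.1 and 37.6% in the 4 libraries, and that of Pecam1 between 10.4 and 17.4%.

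A list of 38 endothelial genes that took no part in the choice was higher in the wells with endothelial RNA in all 4 libraries. Its summed level was 2779 CPM in wells with endothelial RNA and 475 CPM in wells without it, 5.85-fold higher (5.42 to 6.31), and 3.33-fold (3.08 to 3.62) without the 3 richest wells. Within libraries the sums were 3664 against 873 CPM in A, 2694 against 381 in B, 2894 against 510 in C and 1503 against 442 in D. Leaving out the 3 richest wells took the sums of wells with endothelial RNA to 1482 CPM in A, 2002 in B and 1313 in C, each still above the wells without it. Per well, the list gave 0 to 1.53% of nuclear-encoded UMIs with a median of 0.146% in wells with endothelial RNA, and 0.00320 to 0.205% with a median of 0.0401% in wells without it, so single wells of both groups overlapped. The wells between the thresholds stood at 548 CPM, near the level of the wells without endothelial RNA.

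**Figure D2:**
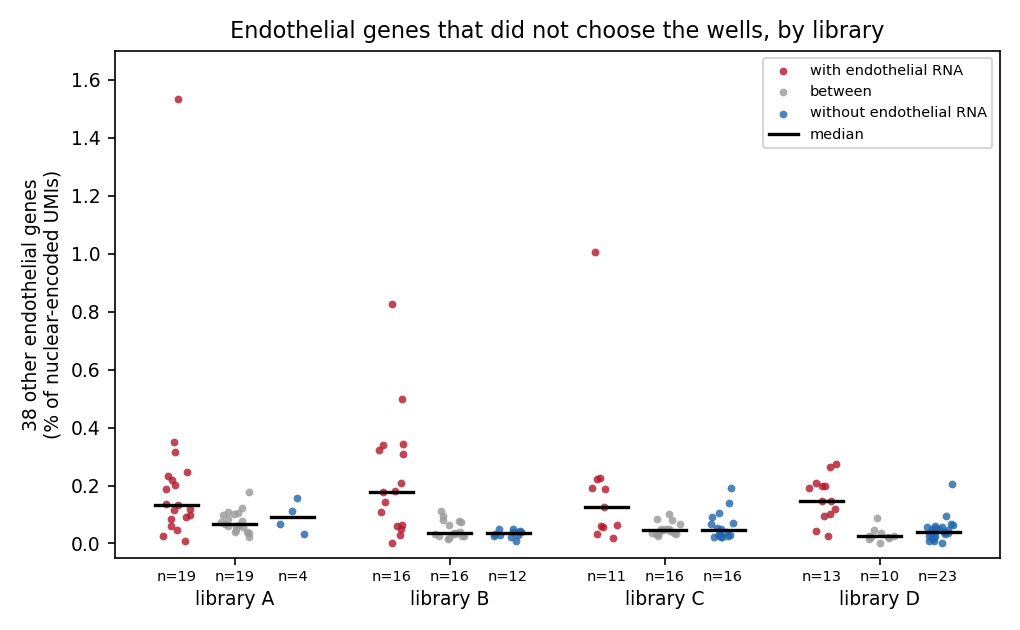
Each point is a well, by library and group, with the share of 38 other endothelial genes in percent of nuclear-encoded UMIs on the y axis and a bar at the median of each group. In all 4 libraries the median of the wells with endothelial RNA lies above that of the wells without it, and the 3 highest wells are the 3 richest ones at 0.827 to 1.53%.

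Of the 38 genes, 31 held at least 30 UMIs over both groups and counted as measured. Among those, 28 were at least 2-fold higher on the log2 scale with a pseudocount of 5 CPM, none was 2-fold lower, and 24 were at least 2-fold higher without the 3 richest wells. Of all 9273 measured genes outside the 6, 1249 (13.5%) were at least 2-fold higher, and 752 (8.11%) without the 3 richest wells. The other 7 genes (Cldn5, Mcam, Sox17, Sox7, Ecscr, Clec14a and Egfl8) had too few UMIs. A gene that reached 30 UMIs only through the wells with endothelial RNA had to be higher there, so these counts describe the pools.

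Receptors of endothelium were among these genes. Kdr, the main receptor for VEGF-A, stood at 37.6 CPM in wells with endothelial RNA and 0 in wells without it in library A, 160 against 2.82 in B, 136 against 9.73 in C and 76.8 against 8.83 in D. The ratio over all wells was 13.9 (7.78 to 27.4), or 11.3 without the 3 richest wells. Tie1 and Tek, the receptors of the angiopoietin pathway, were 13.9-fold and 10.4-fold higher, and 4.66-fold and 4.28-fold without the 3 wells; Tie1 stood at 15.9 against 10.3 CPM in library D. S1pr1, the sphingosine phosphate receptor that steadies junctions, was 25.5-fold higher (10.7 to 79.8), and 9.58-fold without the 3 wells. Eng, a co-receptor of the TGF-beta family, was 5.90-fold higher and Robo4, a guidance receptor of endothelium, 17.96-fold (4.66 to 153), with 40 UMIs against 2.

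Ramp2, Tspan12 and Pltp were the 3 measured genes of the list that were not at least 2-fold higher. Ramp2, the partner protein of the adrenomedullin receptor, stood at 100.5 against 90.6 CPM, a ratio of 1.11 (0.889 to 1.39). Tspan12 stood at 22.9 against 21.3 CPM and Pltp, a phospholipid transfer protein, at 10.9 against 12.8 CPM. By contrast, Ptprm, an adhesion phosphatase, was detected in 54 of 59 wells with endothelial RNA and 46 of 55 without it, at 498 against 171 CPM, 2.91-fold higher, and 1.98-fold without the 3 richest wells.

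Transcription factors of blood vessels followed the same pattern. Of 14 measured, 12 were at least 2-fold higher and 8 without the 3 richest wells, and their summed level was 1719 against 508 CPM, 3.39-fold higher (3.14 to 3.66). Fli1, an ETS factor of endothelial and blood cells, stood at 137 against 0 CPM in library A, 173 against 14.1 in B, 147 against 37.0 in C and 92.6 against 2.94 in D, 8.84-fold over all wells. Ets1 was 18.4-fold higher (6.92 to 69.2) and Sox18, a factor of vessel growth, 86.2-fold (15.1 to 3441), with 96 UMIs against 1 and 54.6% of them in a single well; without the 3 richest wells the ratio was 32.6. Erg, the ETS factor most restricted to endothelium, held 61 UMIs in wells with endothelial RNA and 0 in wells without it, but gave no UMI in library D. Mef2c and Meis2, which myocytes also express, stood at ratios of 1.09 and 0.999.

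The promoters of Egfl7, which took part in the choice, and of Cyyr1, which did not, show letters that ETS factors are known to bind. The promoters, 250 bases before to 50 after the annotated start, are from RefSeq on GRCm38.p6, printed 5′ to 3′ on the strand of the gene. Capitals mark matches to CAGGAAG or CCGGAAG on either strand, where CTTCCTG and CTTCCGG are the reverse forms; these motifs do not overlap in either sequence. Egfl7 lies at chr2:26580833-26581132 on the plus strand and is the first of 3 starts listed for the gene. Cyyr1, the gene that led the ranking below, lies at chr16:85550324-85550623 on the minus strand.
Egfl7: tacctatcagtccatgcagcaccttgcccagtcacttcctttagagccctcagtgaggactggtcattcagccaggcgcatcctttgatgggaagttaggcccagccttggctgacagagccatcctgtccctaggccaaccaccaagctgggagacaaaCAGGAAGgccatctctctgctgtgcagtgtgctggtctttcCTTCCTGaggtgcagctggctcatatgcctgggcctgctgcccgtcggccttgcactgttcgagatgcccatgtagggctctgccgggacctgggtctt
Cyyr1: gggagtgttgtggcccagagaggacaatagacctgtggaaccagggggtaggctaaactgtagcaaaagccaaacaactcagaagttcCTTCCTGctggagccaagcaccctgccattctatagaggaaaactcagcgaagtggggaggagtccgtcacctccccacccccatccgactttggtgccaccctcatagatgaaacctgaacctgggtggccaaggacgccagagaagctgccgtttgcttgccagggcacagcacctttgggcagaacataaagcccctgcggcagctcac

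The printed Egfl7 promoter holds a match on each strand, and the Cyyr1 promoter holds 1 on the strand opposite to the gene. The second Egfl7 start listed holds 1 match and the last holds none. Of the 6 choosing genes, only Egfl7 and Flt1 had a listed promoter, and that of Flt1 holds no match. Of the 38 endothelial genes, 22 had a promoter in the table, and 7 of these (31.8%) held a match at any listed start. Of the 6965 measured genes with a promoter there, 2156 (31.0%) did so, as did 23.15% of all 27025 genes with a promoter, and 20.9% of all 32851 promoters of this length hold one. Of the 20 genes named below, 15 had a promoter and 3 of these (20.0%) held a match. The share in the endothelial list is therefore near that of all measured genes, and a match is not shown to be a binding site.

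Capillary genes were higher as a group, with an exception that carries most of their RNA. Of 15 measured genes of the list, 13 were at least 2-fold higher and 10 without the 3 richest wells. Rgcc, a capillary marker of the heart, stood at 46.4 CPM in wells with endothelial RNA and 1.22 in wells without it, with 85 UMIs against 2 and a ratio of 38.2 (10.2 to 320). Gpihbp1, which holds lipoprotein lipase on the capillary wall, stood at 99.9 against 4.86 CPM, 20.5-fold higher (10.2 to 48.3), and 9.43-fold without the 3 wells. Aqp1, the water channel, was 7.02-fold higher (4.49 to 11.5), or 4.31-fold without the 3 wells, and Btnl9 53.9-fold, with 60 UMIs against 1. Car4, a carbonic anhydrase of the capillary surface, had 27 UMIs against 1 and fell short of the minimum.

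Cd36, the fatty acid transporter, held 1906 of the 3757 UMIs of the capillary list in wells with endothelial RNA. It stood at 1041 CPM in wells with endothelial RNA and 899 CPM in wells without it, a ratio of 1.16 (1.08 to 1.24), and it was lower in library A, at 701 against 1038 CPM. It was detected in 58 of 59 wells with endothelial RNA and 54 of 55 without it. The summed capillary list was 1.89-fold higher (1.79 to 2.0), and 1.55-fold (1.46 to 1.64) without the 3 richest wells. Without those wells it stood at 1493 against 1182 CPM in library A, 2217 against 978 in B, 1463 against 1278 in C and 1509 against 982 in D. Tmem100 was the single gene of the list on the other side, at 25.7 against 54.1 CPM.

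Genes of larger vessels were higher too, so the RNA was not of capillary genes alone, but much of the difference came from the 3 richest wells. The arterial list stood at 483 against 76.0 CPM, 6.35-fold higher (5.26 to 7.72), and 2.17-fold (1.75 to 2.70) without them, when 3 rather than 7 of its 9 measured genes were at least 2-fold higher. The library A well alone held 539 of its 884 UMIs, and with library A left out the log2 ratios were 1.23 for the arterial list and 2.03 for the venous and endocardial list, against 2.59 and 2.70 with it. The list of venous and endocardial genes stood at 480 against 69.9 CPM, 6.87-fold higher and 3.27-fold without the 3 wells. Of 8 measured, 7 were at least 2-fold higher and 6 without those wells, but in library D the list stood at 31.8 against 66.2 CPM. Without those wells the list stood at 219 against 216 CPM in library A, 87.7 against 25.4 in B and 605 against 77.8 in C. Vwf, the clotting factor of venous and endocardial endothelium, stood at 288 against 10.3 CPM in library A and 187 against 19.5 in C, but at 2.11 against 8.46 in B and 5.29 against 19.1 in D. Of 4 lymphatic genes measured, 3 were at least 2-fold higher. The summed list was 1.75-fold higher (1.47 to 2.09), but lower in LV wells alone and in library A, at 111 against 318.5 CPM. Among the 3 genes was Ccl21a, with 61.7% of its UMIs in a single library B well and detection in 5 wells of each group. Prox1, the lymphatic master factor that is also expressed in myocytes, was the most abundant of the 4 and stood at 88.4 against 101 CPM.

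Outside the 6 genes, 20 genes had the highest ratios among those that lay on the same side in every library, held UMIs in at least 5 wells of the higher group and took at most 50% of their UMIs from a single well. Pooled over the libraries, all 20 were at least 2-fold higher with the 3 richest wells left out. Within library C, however, leaving out its richest well reversed S1pr1, to 2.725 against 3.89 CPM, and Cxcl12, to 8.17 against 15.6 CPM. Ly6e, at 49.0 against 42.8 CPM, and Gpihbp1, at 10.9 against 7.78 CPM, came closer to level there. Over all measured genes, 1253 (13.5%) were higher in all 4 libraries, and 1228 genes met the conditions for this ranking. The 20 hold 8 genes of the endothelial lists (Cyyr1, Slc9a3r2, Adgrl4, Gpihbp1, S1pr1, Ldb2, Podxl and Ly6c1), 5 of other lists (Cav1, Ly6e, Klf4, Cxcl12 and Bmp6) and 7 in no list (Fgd5, Ccdc85a, Kitl, Hpcal1, Hspa12b, Rapgef5 and Dach1).

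Cyyr1, a small membrane protein, led the ranking. It stood at 33.8 CPM in wells with endothelial RNA and 0 in wells without it in library A, 264 against 8.46 in B, 109 against 5.84 in C and 111 against 1.47 in D. Being higher in every library was a condition of the ranking. Over all wells the ratio of Cyyr1 was 30.0 (14.3 to 75.5), or 25.2 without the 3 richest wells. It was detected in 27 of 59 wells with endothelial RNA and 6 of 55 wells without it.

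The genes in no list included signalling proteins of endothelium. Fgd5, an exchange factor for Cdc42 in endothelial cells, stood at 103 against 3.04 CPM, 33.8-fold higher (14.2 to 105), and 16.3-fold without the 3 wells. Kitl, the ligand of Kit, stood at 30.1 against 0 CPM in library A, 323 against 14.1 in B, 107 against 11.7 in C and 132 against 2.94 in D, 18.5-fold over all wells (10.6 to 35.1). Ccdc85a was 30.4-fold higher (12.8 to 94.7), with 32.0 to 183.5 CPM within libraries against 0 to 10.3 CPM. Hspa12b, a heat shock protein family member of endothelial cells, held 82 UMIs in 18 wells with endothelial RNA and none in wells without it; 28 of the 82 lay outside the 3 richest wells. Rapgef5, an exchange factor for Rap proteins, was 14.4-fold higher (9.31-fold without the 3 wells), and Dach1, a factor that promotes coronary artery growth, 15.7-fold.

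**Figure D3:**
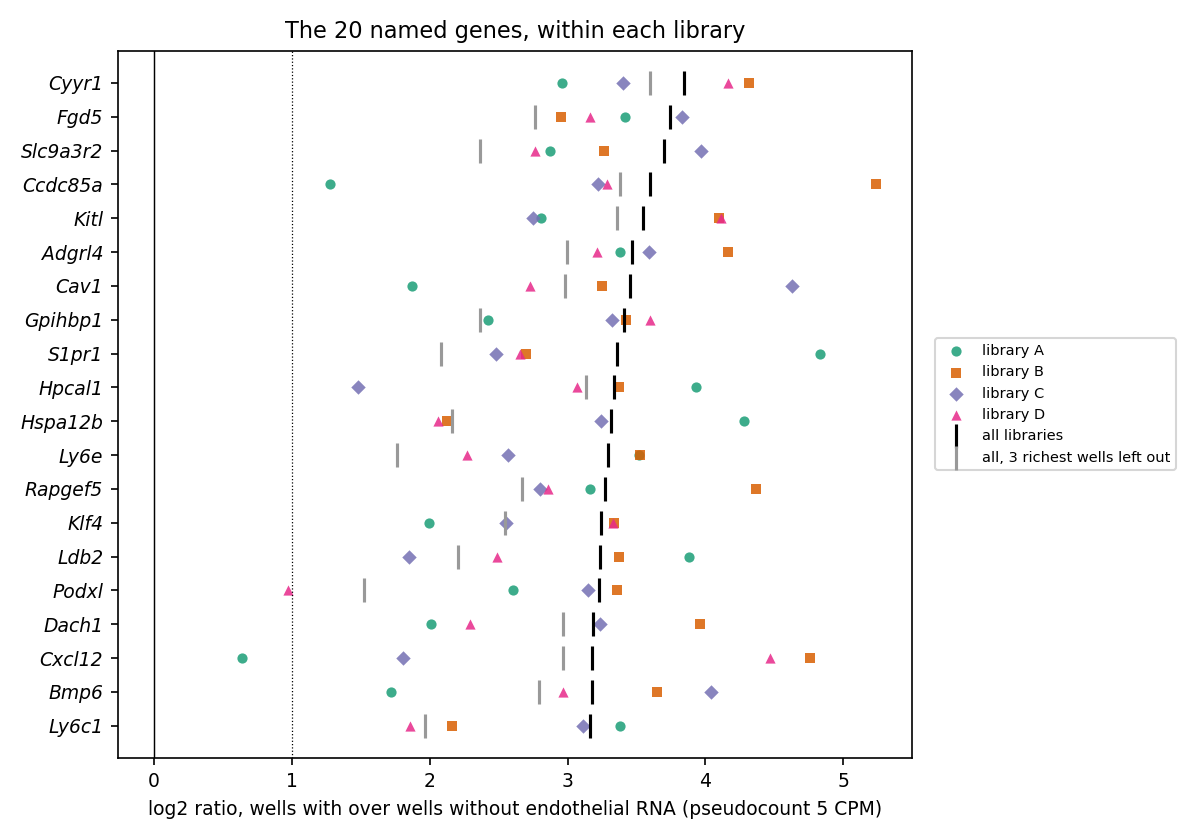
The log2 ratio of wells with over wells without endothelial RNA (pseudocount 5 CPM) for the 20 named genes, with a marker for each library, a black bar for all wells and a grey bar without the 3 richest wells; the dotted line is 2-fold. Every marker lies above 0, which the choice of the genes required, and Cxcl12 in library A, at 50.8 against 30.8 CPM, is the lowest.

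Of 12 measured ligands, 5 were at least 2-fold higher and 4 without the 3 richest wells. Vegfa, the growth factor that myocytes supply, stood at 228 CPM in wells with endothelial RNA and 266 CPM in wells without it, a ratio of 0.857 (0.748 to 0.982), and Vegfb stood at 487 against 558 CPM. Angpt1, the ligand of Tek, stood at 55.1 against 65.7 CPM and Fgf1 at 115 against 146 CPM. The chemokine Cxcl12 stood at 107 against 7.29 CPM, 14.6-fold higher (8.17 to 28.7), and the iron-sensing signal Bmp6 at 95.0 against 6.08 CPM, 15.6-fold (8.30 to 33.2). Pdgfb and Pdgfd, growth factors for mural cells, were each 4.67-fold higher, and 3.16-fold and 2.60-fold without the 3 richest wells.

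Of 12 measured vascular receptors, 9 were at least 2-fold higher, and 8 were so without the 3 richest wells. Their sum was 756 against 236 CPM, 3.21-fold higher (2.86 to 3.60). Nrp1 and Nrp2, co-receptors of VEGF, were 3.41-fold and 9.18-fold higher. Ednrb, the endothelin receptor of endothelium, stood at 22.4 against 1.22 CPM, 18.4-fold higher (4.78 to 157). Ednra, the endothelin receptor of muscle, stood at 11.5 against 30.4 CPM, a ratio of 0.377 (0.215 to 0.640), and was the list's single gene at least 2-fold lower, as were 185 (2.0%) of all measured genes, and 295 (3.18%) without the 3 richest wells. Notch genes depended on the richest wells, with 3 of 8 measured at least 2-fold higher and 2 without those wells, and a sum 2.18-fold higher in all wells and 1.04-fold (0.855 to 1.26) without them. With library A left out its log2 ratio was 0.306, against 1.09 with it. Of all measured genes, 13.5% were at least 2-fold higher, and 8.11% without the 3 richest wells.

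Genes of the antigen presentation list were higher in the wells with endothelial RNA, though single wells of both groups overlapped. Their summed level was 917 CPM in wells with endothelial RNA and 162 CPM in wells without it, 5.65-fold higher (4.96 to 6.45), and 2.92-fold (2.54 to 3.37) without the 3 richest wells. Within libraries it was 1379 against 195 CPM in A, 825 against 163 in B, 928 against 224 in C and 368 against 110 in D. Without the richest wells the levels were 551 CPM in A, 638 in B and 302 in C, all above the wells without endothelial RNA. Of 9 measured genes 8 were at least 2-fold higher, and 6 without the 3 wells. Ly6e alone held 430 of the list's 1679 UMIs in wells with endothelial RNA and was 12.1-fold higher, or 4.01-fold without the 3 wells. Per well, the list gave a median of 0.0408% in wells with endothelial RNA and 0.0122% in wells without it. A well without endothelial RNA reached 0.554%, above the highest of the other 56 wells with it, at 0.179%. B2m, the light chain of class I molecules, was detected in 45 of 59 wells with endothelial RNA and 22 of 55 without it, and was 5.32-fold higher (4.08 to 7.03), and 3.20-fold without the 3 wells. The class I heavy chains H2-D1 and H2-K1 were 9.08-fold and 4.30-fold higher, and 3.89-fold and 2.73-fold without the 3 richest wells; they are close relatives, and counting could split reads between them.

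Lists of immune cell genes were not higher over all wells. The macrophage list stood at 74.8 against 91.8 CPM, a ratio of 0.815 (0.642 to 1.03), with 11 of its 14 genes under 30 UMIs. Its log2 ratio was -1.31 in LV wells and 0.718 in RV wells, a difference that was not tested. Of its 3 measured genes, Lgmn was at least 2-fold lower, at 13.7 against 39.5 CPM, and Cd74 as well without the 3 richest wells. Cd68 and C1qa, defining genes of macrophages, had 1 UMI against 0 and 6 against 0. The lymphocyte list had 21 UMIs in wells with endothelial RNA and 26 in wells without it, with Cd79b and Ms4a1 at 0 in both groups.

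Of 10 measured genes of caveolae and the cell surface, 6 were at least 2-fold higher and 4 without the 3 richest wells. Their sum was 1.47-fold higher (1.37 to 1.56). Cav1, which forms the caveolae of endothelium, stood at 103 against 4.86 CPM, 21.2-fold higher (10.5 to 49.9), and Cav2 was 10.5-fold higher. Cav3, the muscle caveolin, stood at 72.6 against 87.5 CPM, a ratio of 0.830 (0.650 to 1.06), and the muscle protein Cavin4 at 112 against 132 CPM. Cavin1 and Cavin2 were 3.56-fold and 4.54-fold higher, and 1.99-fold and 3.16-fold without the 3 wells.

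Basement membrane genes stood at 1285 against 564 CPM, 2.28-fold higher (2.11 to 2.46), and 1.53-fold (1.41 to 1.67) without the 3 richest wells. Without those wells the list stood at 1016 against 606 CPM in library A and 965 against 327 in B. It was lower in C, at 670 against 796 CPM, and stood at 757 against 506 in D. Of 11 measured, 6 were at least 2-fold higher and 2 without those wells, against 13.5% and 8.11% of all measured genes. Col4a1, the vascular collagen chain, was 4.11-fold higher (3.25 to 5.24), or 2.38-fold without those wells, with 207 against 30.8 CPM in library A, 213 against 47.9 in B, 344 against 89.5 in C and 87.3 against 30.9 in D. Lamc1, a laminin chain, stood at 36.0 against 49.2 CPM.

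Mural cell RNA was higher over all 59 wells with endothelial RNA, but not once the 3 richest wells were left out. The pericyte list stood at 372 CPM in wells with endothelial RNA and 211 CPM in wells without it, 1.76-fold higher (1.55 to 2.01), but at 152 CPM, 0.722-fold (0.611 to 0.853), without those wells. The smooth muscle list stood at 960 against 350 CPM, 2.75-fold higher (2.498 to 3.022), and at 333 CPM, 0.952-fold (0.845 to 1.07), without them. Of 8 measured pericyte genes, 5 were at least 2-fold higher and 1 without the 3 wells, and the same counts held for 7 measured smooth muscle genes. Of all measured genes, 13.5% were at least 2-fold higher, and 8.11% without the 3 wells. With library A left out, the log2 ratio of smooth muscle genes was 0.115, against 1.44 with it.

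Rgs5, the pericyte regulator of G proteins, stood at 62.1 against 0 CPM in library A, 209 against 8.46 in B, 176 against 87.6 in C and 13.2 against 14.7 in D. Its levels overlapped between the groups, and its ratio was 3.35 (2.49 to 4.55) over all wells and 1.00 without the 3 richest wells. Per well, Rgs5 reached 1451 CPM in the group with endothelial RNA and 630 CPM in the group without it, and it was detected in 22 of 59 and 16 of 55 wells. Abcc9, a channel subunit that myocytes share with pericytes, stood at 96.6 against 116 CPM. Acta2, the actin of smooth muscle, stood at 103 against 165 CPM and was lower in all 4 libraries. Eln and Mgp, matrix genes of the arterial wall, were 19.8-fold and 15.8-fold higher, and 2.22-fold and 2.04-fold without the 3 richest wells, with 79.6% and 73.0% of their UMIs in the richest well of library A, which held 1083 of the 1758 smooth muscle list UMIs. Across the 175 wells, the share of the 6 genes had a Spearman correlation of 0.52 with the other endothelial list, 0.53 with antigen presentation, 0.079 with the pericyte list and 0.11 with the smooth muscle list; wells share libraries and a common total, and these values are a description.

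**Figure D4:**
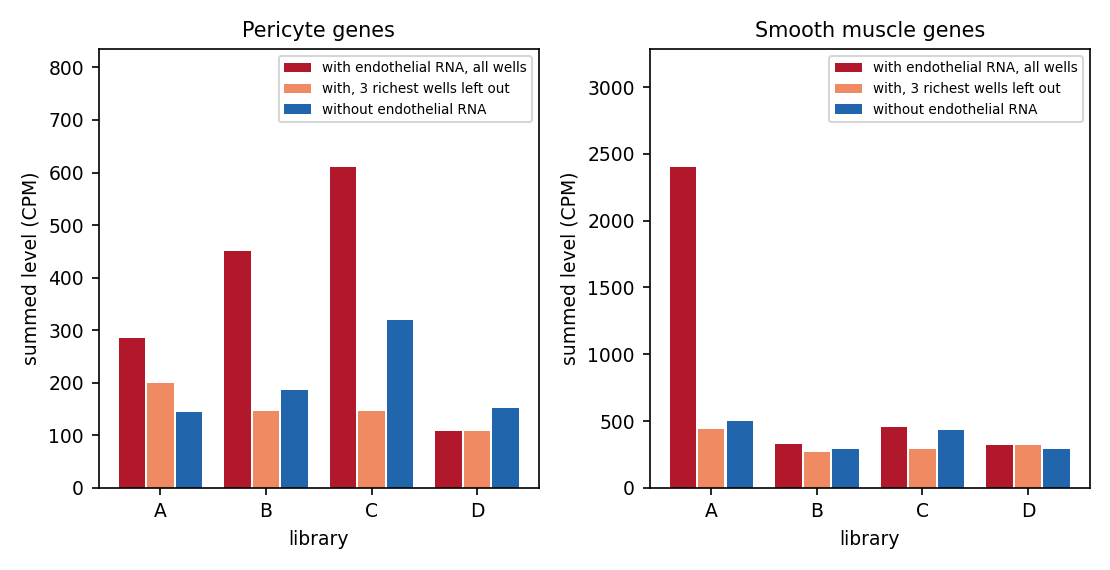
Summed level of pericyte genes (left) and smooth muscle genes (right) in CPM by library, for all wells with endothelial RNA, those wells without the 3 richest, and wells without endothelial RNA. Leaving out the richest well of library A takes its smooth muscle level to 437 CPM, below the 503 CPM of its wells without endothelial RNA.

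Fibroblast and matrix genes stood at 668 against 399 CPM, 1.67-fold higher, and 1.23-fold (1.11 to 1.36) without the 3 richest wells. Of 12 measured, 5 were at least 2-fold higher and 3 without those wells, against 13.5% and 8.11% of all measured genes. The libraries did not share a direction, with 1119 against 113 CPM in A and 365 against 514 CPM in D. Dcn, the main proteoglycan of fibroblasts, stood at 165 against 133 CPM and Pdgfra, a defining receptor of fibroblasts, had 12 UMIs against 16.

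Red cell RNA was lower over all wells with endothelial RNA, but not in library A. The red cell list stood at 9795 CPM in wells with endothelial RNA and 16760 CPM in wells without it, a ratio of 0.585 (0.574 to 0.596), and 0.593 without the 3 richest wells. With wells of over 2% RNA of other cells left out, which kept 50 wells with and 39 wells without endothelial RNA, the log2 ratio was -0.0062, against -0.774 in all wells. RNA of other cells here means the red cell, mesothelial, macrophage and fibroblast lists. That filter therefore removes the wells rich in red cell RNA itself, and it cannot test the difference. Of the 7 measured genes of the red cell list, 1 was at least 2-fold lower, as were 2.0% of all measured genes. The direction was not shared by the libraries: 12340 against 5014 CPM in A, 10500 against 12440 in B, 7728 against 17480 in C and 7779 against 20150 in D. Per well, its share ran from 0.0484 to 12.3% with a median of 0.603% in wells with endothelial RNA, and from 0.0784 to 8.45% with a median of 1.103% in wells without it. Its Spearman correlation with the share of the 6 genes over 175 wells was -0.017. Mesothelial genes had 111 UMIs in wells with endothelial RNA and 130 in wells without it, Schwann cell genes 46 against 57 and platelet genes 12 against 7.

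Myocyte genes were slightly lower in all wells with endothelial RNA and close to level without the 3 richest. Of 16 contractile genes none was 2-fold apart, and their sum was 91390 against 104100 CPM, a ratio of 0.878 (0.872 to 0.883), and 0.976 (0.970 to 0.983) without the 3 wells. Ttn, the giant spring protein, stood at 15540 against 17250 CPM and at a ratio of 1.00 without those wells, and Myl2 stood at 9237 against 10960 CPM, with 0.940 without them. The 10 calcium handling genes had a ratio of 0.905, and 0.992 (0.975 to 1.009) without the 3 wells. The 18 respiratory chain genes had a ratio of 0.831 (0.820 to 0.842), and 0.924 (0.912 to 0.936) without them.

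The sums of further lists differed little between the groups. The summed list of fatty acid delivery had a ratio of 0.920, which turned to slightly above 1 in RV wells alone, and in it Fabp3, the carrier of muscle, stood at 2236 against 2744 CPM and Lpl at 2670 against 2789 CPM. Its single genes differed more than its sum. Of the 12, 5 were at least 2-fold higher, as were 13.5% of all measured genes. Among these 5 were Gpihbp1, also in the capillary list, and Lipe. At least 2-fold lower was 1 gene, Slc27a4, at 16.4 against 44.4 CPM. Nuclear-retained RNA had a ratio of 1.03 (1.00 to 1.07), which was below 1 under TMM scaling, and heat shock genes 0.920 (0.891 to 0.951). Immediate-early genes had a ratio of 1.21 (1.16 to 1.25), and 1.09 (1.04 to 1.13) without the 3 richest wells; of 15 measured, 1 was at least 2-fold higher and none without those wells. It was Klf6, at 117 against 43.2 CPM, whose log2 ratio of 1.34 was 0.98 without the 3 wells.

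**Figure D5:**
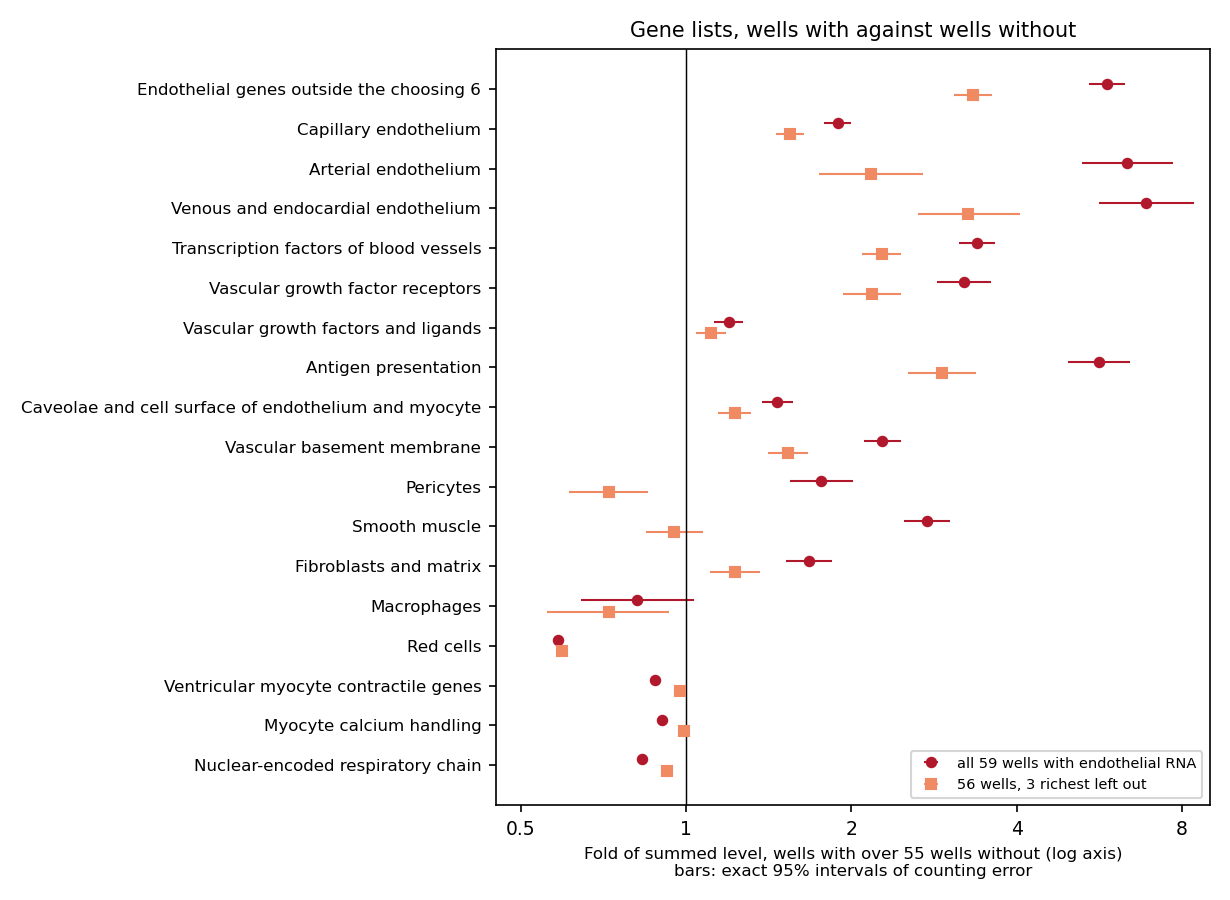
Fold of the summed level in wells with over wells without endothelial RNA for 18 gene lists on a logarithmic axis, for all 59 wells (circles) and for 56 wells with the 3 richest left out (squares), with exact 95% intervals of counting error. Endothelial genes outside the choosing 6 stand at 5.85 and 3.33, pericyte genes at 1.76 and 0.722, and contractile genes at 0.878 and 0.976.

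Genes lower in wells with endothelial RNA were fewer than higher ones. In all 4 libraries 525 (5.66%) of the measured genes were lower. The 10 lowest under the same conditions were Nufip1, Oard1, Slc35b2, Det1, Nqo2, Sgsm3, Gemin6, Nop9, Tada3 and Pdcd11, all with at most 45.6 CPM in either group and in no list. Oard1, a hydrolase of ADP-ribose esters, stood at 11.3 against 41.1 CPM in library A, 6.33 against 22.6 in B, 13.4 against 54.5 in C and 5.29 against 51.5 in D, a ratio of 0.204 (0.113 to 0.348) over all wells. Nufip1 had 2 UMIs against 37, in 2 and 6 wells, a ratio of 0.0485 (0.00567 to 0.188).

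The endothelial signal was weaker outside these wells. Among 43 atrial-labelled wells of the same depth, 11 reached 0.02% and 13 lay below 0.005%; the other endothelial list stood at 1095 against 761 CPM there, 1.44-fold higher (1.20 to 1.73). The capillary list was lower there, at 1181 against 1399 CPM, a ratio of 0.844 (0.719 to 0.989). Kdr stood at 26.8 against 234 CPM and Ly6e at 161 against 539 CPM, both opposite to the ventricular wells. Of the 20 named genes, 13 were higher in those 11 wells, 11 of them at least 2-fold, and 7 were lower. Each of those 11 genes held under 30 UMIs over both atrial groups, from 3 against 0 for Hspa12b to 11 against 4 for Kitl. Among the 2977 measured genes there, 172 (5.78%) were at least 2-fold higher, a share that does not cover genes with so few UMIs. In the live and fixed experiment, 0 of 61 ventricular cells of this depth reached 0.02%, which allows a share of up to 4.92%, and the highest stood at 0.0154%. The 6 genes gave 496 CPM in all 175 ventricular wells of the multichamber experiment and 54.3 CPM in those cells. When the share was taken of protein-coding UMIs, 56 of the 175 wells and 1 of the 61 cells reached 0.02%; the experiments differ in library and in the genes that fill the total, so the difference cannot be told apart from the experiment.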

How the data were processed

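The authors deposited UMI counts and read counts per gene and cell barcode, not normalized, with per-cell tables of chamber and library. Per the submitters' processing notes, alignment and counting used STAR 2.5.4b, featureCounts and the GRCm38 genome. How UMIs were collapsed, which annotation was used and whether strand was kept is not given in the sources used here; reads of overlapping or antisense genes may therefore be mixed. Symbols and coordinates came from GENCODE M21 for 24489 of 24522 gene IDs. The 45 barcode columns without a label were left out. No doublet caller was run.

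UMIs were summed over the wells of each group and scaled to nuclear-encoded UMIs (1831728 in wells with and 1645209 in wells without endothelial RNA), leaving out 25 mitochondrially encoded genes. For each ratio on the log2 scale 5 CPM was added to both levels, so low genes have understated log2 ratios; folds are plain ratios of CPM. Genes needed 30 UMIs over both groups. Intervals are exact 95% Clopper-Pearson intervals of the summed counts and cover counting error only; amplified molecules, wells and libraries add spread that they do not hold. Named genes were the 20 highest and 10 lowest log2 ratios under the conditions stated in the text; predicted genes were not named. Any member of the endothelial, capillary, pericyte, ligand and receptor lists, and of other lists the most abundant and those with the largest ratios, could be named too, and further members that mark a cell type were chosen after their values were seen. The wells, the 6 genes and the 28 lists were chosen with earlier results of these data known. The functions were tested on simulated counts. Alternatives were 21 planned settings, with other totals (edgeR TMM among them), pseudocounts, minimums, thresholds, chambers, thinning and each library left out, and 1 added after the 3 richest wells were seen, which leaves them out. Tables were made with pandas 2.3.3 and numpy 2.4.6 under Python 3.11.15, intervals with scipy 1.17.1, TMM factors with edgeR 4.0.16 (R 4.3.3), and figures with matplotlib 3.10.9.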

Additional observations from a re-analysis of the deposited data

Results flagged for a closer look

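In each gene list, the log2 ratio of wells with over wells without endothelial RNA was compared across the 4 libraries, and a library was marked when its gap to the nearest other library was over 0.829 of the whole range. Of 29 such checks, 3 were marked; chance marks about 1 in 20.

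Library D had the lowest ratio of venous and endocardial genes, at -0.955 (31.8 CPM in wells with and 66.2 CPM in wells without endothelial RNA), while the other libraries lay between 2.20 and 2.85. Without its richest well, library A stood at 0.0196 for these genes (219 against 216 CPM). Library A had the highest ratio of smooth muscle genes, at 2.25 (2405 against 503 CPM), and the others lay between 0.0678 and 0.145; without its richest well, library A stood at -0.200. Library D also had the highest ratio of respiratory chain genes, at -0.0551 (26700 against 27740 CPM), the others lying between -0.376 and -0.334.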

How the results depend on the processing

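Values are log2 ratios unless they are counts. The sum over other endothelial genes (2.53) stayed at least 2-fold higher under every setting run. It was 2.30 under TMM, 1.96 with wells weighted equally, 2.88 from read counts, 2.70 for wells of at least 0.05% against wells with no UMI of the 6 genes, 2.06 in thinned wells, 2.28 as a mean within libraries, 2.09 without the top well of each gene, 1.73 without the 3 richest wells and 2.41 to 2.63 with a library left out. The sum over mural genes (1.24) reversed to -0.207 without the 3 richest wells, an alternative chosen after seeing the data, as did smooth muscle alone (-0.0704); they stood at 1.01 under TMM, 0.587 with equal weights, 0.906 thinned, 1.76 in LV, 0.559 in RV, 0.797 within libraries, 0.169 without each gene's top well and 0.479 to 1.57 with a library left out. The 6 genes chosen by the other 5 (median 3.54) stood at 2.57 without the 3 wells.

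The counts of genes at least 2-fold higher and genes at least 2-fold lower depended strongly on the setting. The 1249 higher genes became 3961 from read counts, 379 with a pseudocount of 20, 2078 and 356 at minimums of 10 and 100 UMIs, 147 thinned, 783 without top wells, 623 without the 3 richest wells with the minimum applied anew, and 1073 to 1327 with a library left out. The 185 lower genes became 88 with all UMIs as the total, 350 under TMM, 321 with equal weights, 1619 from read counts, 330 and 12 with pseudocounts of 1 and 20, 390 and 42 at minimums of 10 and 100, 302 at 0.05% against no UMI, 61 thinned, 330 in LV and 220 to 250 with a library left out. The median of all genes was 0.126, and -0.0709 under TMM. All 20 named higher genes stayed at least 2-fold higher in every setting, and 4 of the 10 lower ones at least 2-fold lower. The 20 were the highest ratios of these same data, so this is not separate support for them. Sgsm3 (0.339) and Tada3 (0.461) reversed at 0.05% against no UMI, and Nop9 (0.486) in LV. The causes were not tested. No paired analysis was possible because all wells belong to 1 sample and the labels number no replicates.

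Depth limits the placing of single wells: the median well with endothelial RNA held 16 UMIs of the 6 genes, and a well near the lower threshold 1 or 2.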
